A study of Mus musculus with 8 samples.

Results

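The genes described here carry out the last steps of drug and metabolite disposal in the gut wall: glucuronidation, sulfation and export. They were chosen by name as 10 genes, namely the UDP-glucuronosyltransferases Ugt1a1, Ugt2b34, Ugt2b5 and Ugt2a3, the sulfotransferases Sult1b1, Sult1d1 and Sult2b1, and the efflux pumps Abcb1a, Abcc2 and Abcg2. A probe set carried the symbol of 9 of the 10 among the 22206 probe sets of a Clariom S mouse array, and Ugt1a1 is not analysed here. Each of the 9 had 1 probe set, so 6 conjugating enzymes and 3 efflux pumps were measured. The study set 4 knockout mice (KO), in which Villin-Cre deletes floxed IκBα (gene Nfkbia) in the intestinal epithelium, against 4 littermates labelled wild type (WT), and gave the mice no treatment. The deletion removes the promoter with its NF-κB sites and the exons that follow it, and the sources used here do not say whether WT siblings carry floxed alleles or Cre. Pairs 1 to 4 were 8, 11, 8 and 9 weeks old. Pair 1 was male and pair 2 female, while pair 3 set a male KO against a female WT and pair 4 a female KO against a male WT. RNA integrity numbers were 8.5, 8.3, 8.3 and 7.0 in KO mice of pairs 1 to 4 and 7.6, 8.7, 7.4 and 7.7 in WT mice. RNA came from homogenized duodenum without a stated isolation of epithelium, so cells that keep Nfkbia also contributed. In such bulk RNA, fewer cells of a type and less RNA per cell cannot be told apart.

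Glucuronosyltransferases sit in the endoplasmic reticulum and link glucuronic acid from the donor UDP-glucuronic acid to lipophilic compounds such as bilirubin, steroids and drugs. Cytosolic sulfotransferases add sulfate from the donor PAPS to phenols, catecholamines and sterols. The conjugates are charged and leave the cell through ATP-driven pumps. In enterocytes the pumps of the apical membrane return drugs and conjugates to the gut lumen, and those of the basolateral membrane pass them to the blood, so enzymes and pumps together limit how much of a swallowed compound is absorbed.

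Levels are given as deposited log2 expression values, and differences are KO minus WT within a sibling pair, given as mean ± SD of the 4 differences. The test was limma with the sibling pair as a block, with p adjusted over all 22206 probe sets and a call at 0.05. Array medians lay between 6.77 and 6.81. The deposited values had nearly equal pair means (median SD 0.0175), so the spread within a group mostly mirrors the within-pair differences and was not interpreted. Nfkbia was lower in 4 of 4 pairs (-2.65 ± 0.918, limma adjusted p = 0.0130), with differences of -2.93, -3.26, -1.29 and -3.13 in pairs 1 to 4, and the call was lost without pair 1, 2 or 4 (adjusted p from 0.0512 to 0.0582). The 10 epithelial markers were all far above the background level of 5.65 set by olfactory receptor probe sets. Their mean log2 level was 12.30 to 12.35 in KO mice and 12.48 to 12.53 in WT mice, a mean difference of -0.178 with 0 of 10 called by limma, of which 5 had an unadjusted p under 0.05. Some markers of other tissues and cell types differed unevenly between pairs. The 9 pancreatic acinar markers measured, all above background, had median differences of -0.42, 0.23, -3.93 and -3.35 in pairs 1 to 4, with mean log2 levels of 6.37 to 8.23 in KO mice and 7.77 to 10.5 in WT mice. The 7 adipocyte markers had median differences of 2.08, 1.64, 0.16 and -0.11, with mean log2 levels of 6.93 to 8.33 in KO mice and 5.83 to 6.99 in WT mice. By limma 0 acinar and 0 adipocyte markers were called (5 acinar ones lower and 4 adipocyte ones higher at unadjusted p under 0.05), and Lep and Cidea lay at or below background in both groups. Of 8 Paneth cell markers, all above background, 3 were called lower by limma and 0 higher, against 2.70% and 3.16% of all probe sets. The 3 were Ang4 (-1.84 ± 1.15, adjusted p = 0.0477), Habp2 (-1.18 ± 0.600, adjusted p = 0.0333) and Nupr1 (-0.85 ± 0.338, adjusted p = 0.0234). Lyz1, Itln1, Defa17 and Defa24 had lower means without a call, with differences of 0.07, 0.04, 0.11 and 0.08 in pair 3. Mmp7 pointed up without a call (0.27 ± 0.328, adjusted p = 0.234). Paneth cells are the antimicrobial secretory cells of the crypt base. Their markers had median differences of -0.985, -1.135, 0.055 and -1.055 in pairs 1 to 4, with mean log2 levels of 10.1 to 10.8 in KO mice and 10.8 to 11.4 in WT mice. The 6 B cell markers had median differences of 1.025, 0.79, -0.09 and 0.09, with mean log2 levels of 8.61 to 9.19 in KO mice and 8.21 to 8.64 in WT mice, and 1 of them, Pou2af1, was called higher (0.87 ± 0.247, adjusted p = 0.0138). Of 6 T cell markers 1 was called higher, Cd4 (0.40 ± 0.134, adjusted p = 0.0427), and 0 lower, with a median difference of -0.164. Cd3g (-0.56 ± 0.362, limma adjusted p = 0.0648) and Cd3e (-0.305 ± 0.312, adjusted p = 0.173) were lower in 4 of 4 pairs without a call. Cd8a differed by -0.34, Zap70 by -0.0225 and Cd2 by 0.1125, with signs that varied between pairs. By limma 0 of 7 myeloid markers (1 lower and 2 higher at unadjusted p under 0.05) and 0 of 8 muscle markers (0 at unadjusted p under 0.05) were called.

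The 250 bases before the annotated start are shown for the 4 members that the fit called lower, as the stretch in which control of their transcription begins. They come from RefSeq (GRCm38.p6) and run 5′ to 3′ on the gene's strand. Capitals mark matches, on either strand, to any of 6 motifs searched: the HNF1 core GTTAAT, the nuclear receptor hexamer AGGTCA, the PXR-type hexamer AGTTCA, the CDX motif TTTATG, the antioxidant response core TGACNNNGC and the NF-κB consensus.
Ugt2a3 promoter, chr5:87337196-87337445, minus strand: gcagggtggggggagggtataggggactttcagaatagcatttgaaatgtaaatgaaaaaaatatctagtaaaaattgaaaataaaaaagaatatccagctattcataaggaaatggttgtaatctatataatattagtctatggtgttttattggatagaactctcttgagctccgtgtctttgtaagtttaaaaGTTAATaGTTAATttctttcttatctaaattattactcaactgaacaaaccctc
Sult1d1 promoter, chr5:87569007-87569256, minus strand: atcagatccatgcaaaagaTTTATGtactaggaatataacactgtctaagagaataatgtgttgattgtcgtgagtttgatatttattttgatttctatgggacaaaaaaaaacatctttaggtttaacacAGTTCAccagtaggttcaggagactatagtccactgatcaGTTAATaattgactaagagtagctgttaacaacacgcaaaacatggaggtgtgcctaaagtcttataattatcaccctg
Abcb1a promoter, chr5:8566841-8567090, plus strand: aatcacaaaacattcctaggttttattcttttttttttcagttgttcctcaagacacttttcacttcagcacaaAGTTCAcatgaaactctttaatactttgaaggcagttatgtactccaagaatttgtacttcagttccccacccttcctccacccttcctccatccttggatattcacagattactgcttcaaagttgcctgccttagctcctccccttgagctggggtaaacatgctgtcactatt
Abcc2 promoter, chr19:43782058-43782307, plus strand: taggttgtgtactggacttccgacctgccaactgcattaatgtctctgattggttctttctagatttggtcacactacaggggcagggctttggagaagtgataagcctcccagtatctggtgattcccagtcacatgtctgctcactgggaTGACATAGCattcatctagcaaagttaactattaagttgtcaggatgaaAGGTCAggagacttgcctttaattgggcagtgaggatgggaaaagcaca
Ugt2a3 held the HNF1 core at 2 places, from -54 to -49 and from -47 to -42 relative to the start, and Sult1d1 held it from -79 to -74. HNF1 factors are known to drive UGT genes in liver and gut. Of 32841 RefSeq promoters of the same length, 6.43% held that core. Ugt1a1 was the only other gene of the 10 with a match to it. The nuclear receptor hexamer was found in 4 of the 10 genes, Abcc2 among them (14.0% of all promoters). The PXR-type hexamer was found in 4, among them Abcb1a and Sult1d1 (11.8% of all promoters). The NF-κB consensus matched in none of the 4 promoters printed, and in Sult2b1 and Abcg2 of the 10 genes (7.25% of all promoters). The CDX motif (10.8%) matched in Sult1d1 and the antioxidant response core (10.2%) in Abcc2. These matches describe letters in a window and were not tested for binding. A gene was counted when any of its promoters matched, with 14 promoters for the 10 genes. The shares are per promoter, so counts and shares are not directly comparable.

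Inside the sibling pairs, 8 of the 9 genes of conjugation and efflux were lower in each KO mouse than in its sibling, against 17.9% of all probe sets, and Ugt2b5 differed in sign between pairs. By limma 4 of the 9 were called lower in KO duodenum, namely Ugt2a3, Sult1d1, Abcb1a and Abcc2, and 0 were called higher. Over all probe sets 5.86% were called, 2.70% lower and 3.16% higher. For 7 of the 9 all KO values lay below all WT values, against 17.2% of all probe sets, and for 0 all KO values lay above all WT values, against 15.9%. As pair means were nearly equal, that separation largely restates the lower value in all 4 pairs and adds no support of its own. The median difference of the 9 was -0.265, against -0.015 over all probe sets. With 4 pairs an exact two-sided sign-flip test of a single gene cannot go below p = 0.125, so the calls rest on the variance that limma shares across probe sets.

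**Figure D1:**
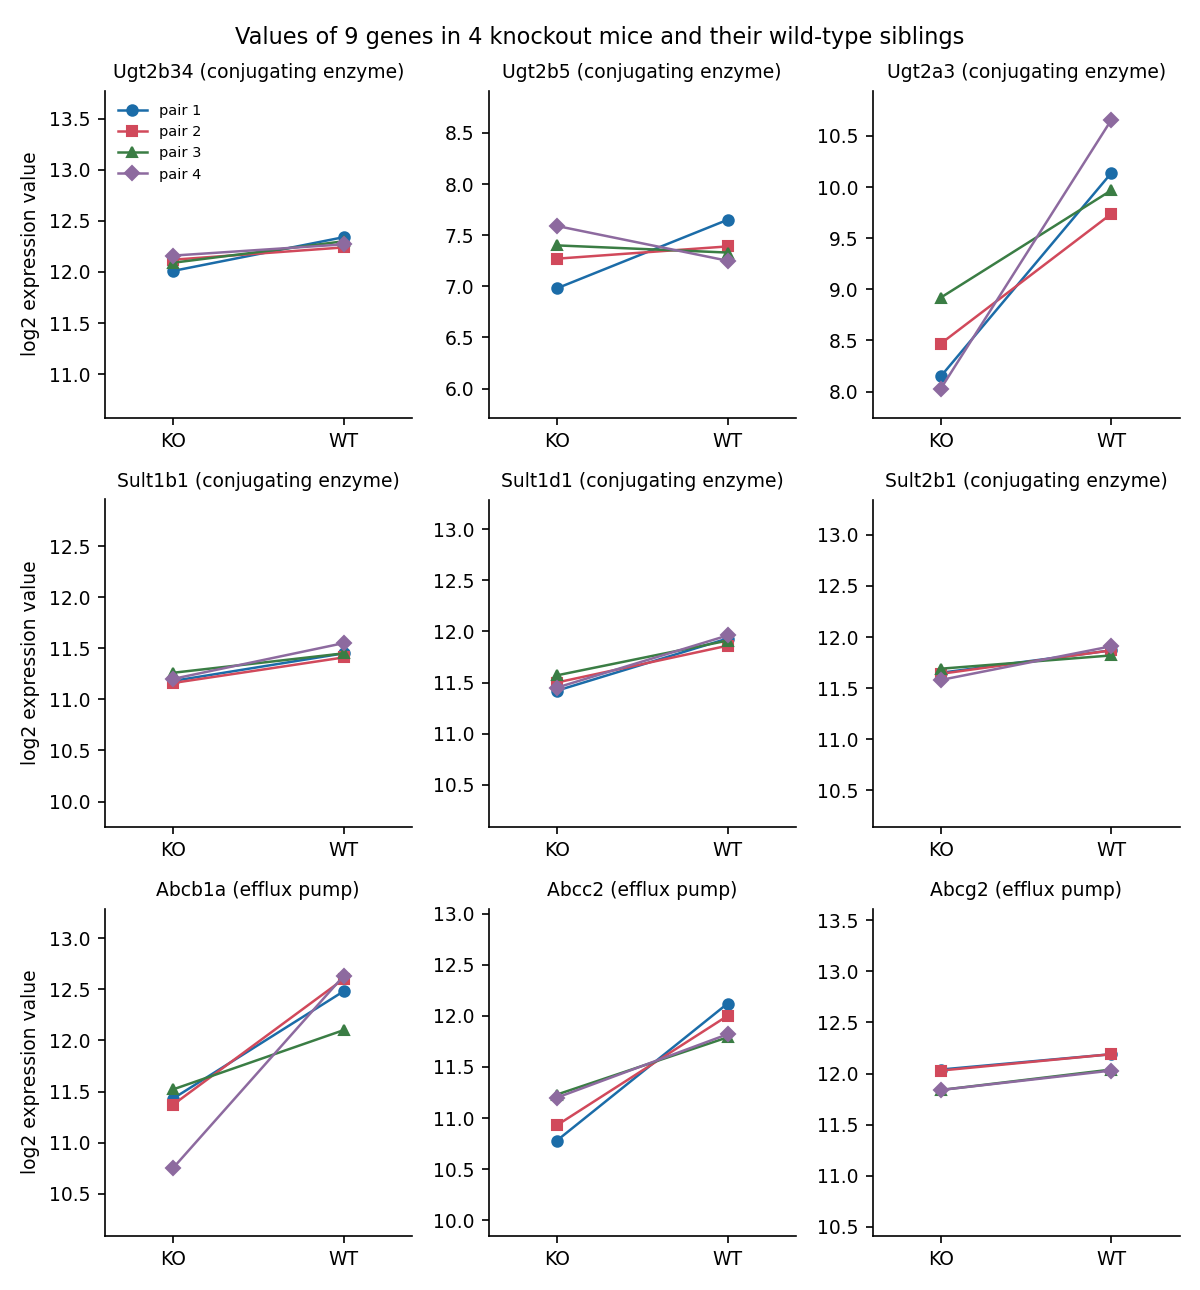
Log2 expression values (y axis, the same span of log2 units in each panel) of the 9 genes in the 4 KO mice (left) and the 4 WT siblings (right), with a line and a symbol for each sibling pair. Ugt2a3, Abcb1a and Abcc2 have the steepest lines, with KO below WT in each pair, while the lines of Ugt2b5 cross.

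Among the glucuronosyltransferases Ugt2a3, whose human counterpart conjugates bile acids, differed by far the most. It had 8.15, 8.47, 8.92 and 8.03 in KO mice of pairs 1 to 4, against 10.14, 9.74, 9.97 and 10.66 in their WT siblings. The highest KO value was thus below the lowest WT value. The difference of -1.74 ± 0.719 (n = 4 pairs) is 3.33-fold lower in KO, with a 95% interval of -2.33 to -1.14 and a limma adjusted p = 0.0205. By pair the differences were -1.99, -1.27, -1.05 and -2.63, and the mean ranked 46th from the lowest of all probe sets. The call was lost without pair 1 (adjusted p = 0.0718) or pair 2 (adjusted p = 0.0625) and was kept without pair 3 (0.0253) or pair 4 (0.0406).

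The other glucuronosyltransferases measured, Ugt2b34 and Ugt2b5, were not called. Ugt2b34, of the UGT2B subfamily that conjugates steroids and drugs, had 12.01, 12.12, 12.09 and 12.16 in KO mice and 12.34, 12.24, 12.30 and 12.27 in WT mice. The groups did not overlap, but the difference of -0.19 ± 0.102 was not called (limma adjusted p = 0.158). Ugt2b5, of the same subfamily, had 6.98, 7.27, 7.40 and 7.59 in KO mice and 7.65, 7.39, 7.33 and 7.25 in WT mice. Its values overlapped and its sign turned between pairs, with differences of -0.67, -0.12, 0.07 and 0.34 in pairs 1 to 4. Their mean of -0.095 ± 0.427 has a 95% interval of -0.47 to 0.28 (limma adjusted p = 0.734), which leaves room for a change of either sign.

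The sulfotransferases were lower in every pair, each by a small amount that varied little between pairs. Sult1d1, a catecholamine sulfotransferase of mice, had 11.42, 11.50, 11.57 and 11.45 in KO mice, against 11.93, 11.86, 11.91 and 11.96 in WT mice. It fell by 0.43 ± 0.0927, or 1.35-fold (limma adjusted p = 0.0285), with differences of -0.51, -0.36, -0.34 and -0.51 in pairs 1 to 4. That call was lost on leaving out any 1 pair (adjusted p from 0.0683 to 0.101).

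Sult1b1, which sulfates phenols and thyroid hormones, had 11.18, 11.16, 11.26 and 11.20 in KO mice and 11.45, 11.41, 11.45 and 11.55 in WT mice. All KO values lay below all WT values, and the difference of -0.265 ± 0.0661 was not called (limma adjusted p = 0.0727). Sult2b1, a sterol sulfotransferase, had 11.65, 11.64, 11.69 and 11.58 in KO mice and 11.87, 11.87, 11.82 and 11.91 in WT mice. It showed the same separation, with a difference of -0.23 ± 0.0818 (limma adjusted p = 0.105).

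The efflux pumps split into a pair with clear falls and another gene with a small difference. Abcb1a, which encodes P-glycoprotein, the apical pump of lipophilic drugs, had 11.43, 11.37, 11.52 and 10.75 in KO mice, against 12.48, 12.60, 12.10 and 12.63 in WT mice. All KO values lay below all WT values. Its difference of -1.18 ± 0.538 is 2.27-fold lower in KO, with a 95% interval of -1.65 to -0.72 (limma adjusted p = 0.0261). By pair it was -1.05, -1.23, -0.58 and -1.88, and the call was lost without pair 1, 2 or 4 (adjusted p = 0.0771, 0.0969 and 0.0518).

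Abcc2 encodes the apical pump MRP2, which exports glucuronides and glutathione conjugates. It had 10.78, 10.93, 11.23 and 11.20 in KO mice, against 12.12, 12, 11.79 and 11.82 in WT mice. All KO values were below all WT values, with the wider gaps in pairs 1 and 2. The difference of -0.90 ± 0.373 is 1.86-fold lower in KO, with a 95% interval of -1.24 to -0.56 (limma adjusted p = 0.0240). By pair it was -1.34, -1.07, -0.56 and -0.62. Pairs 1 and 2 are the same-sex pairs and those with the larger adipocyte and B cell marker medians, and the part of these in the gap was not tested. The call was lost without pair 1, 2 or 4 (adjusted p = 0.0637, 0.0965 and 0.0586).

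Abcg2 encodes BCRP, an apical pump of sulfate conjugates and urate. It had 12.04, 12.03, 11.84 and 11.84 in KO mice and 12.19, 12.19, 12.04 and 12.03 in WT mice. Pairs 1 and 2 were higher than pairs 3 and 4 in both groups, so the groups overlapped although every KO was below its sibling. The 4 differences of -0.15, -0.16, -0.20 and -0.19 were nearly equal, and their mean of -0.175 ± 0.0238 was not called (limma adjusted p = 0.153).

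**Figure D2:**
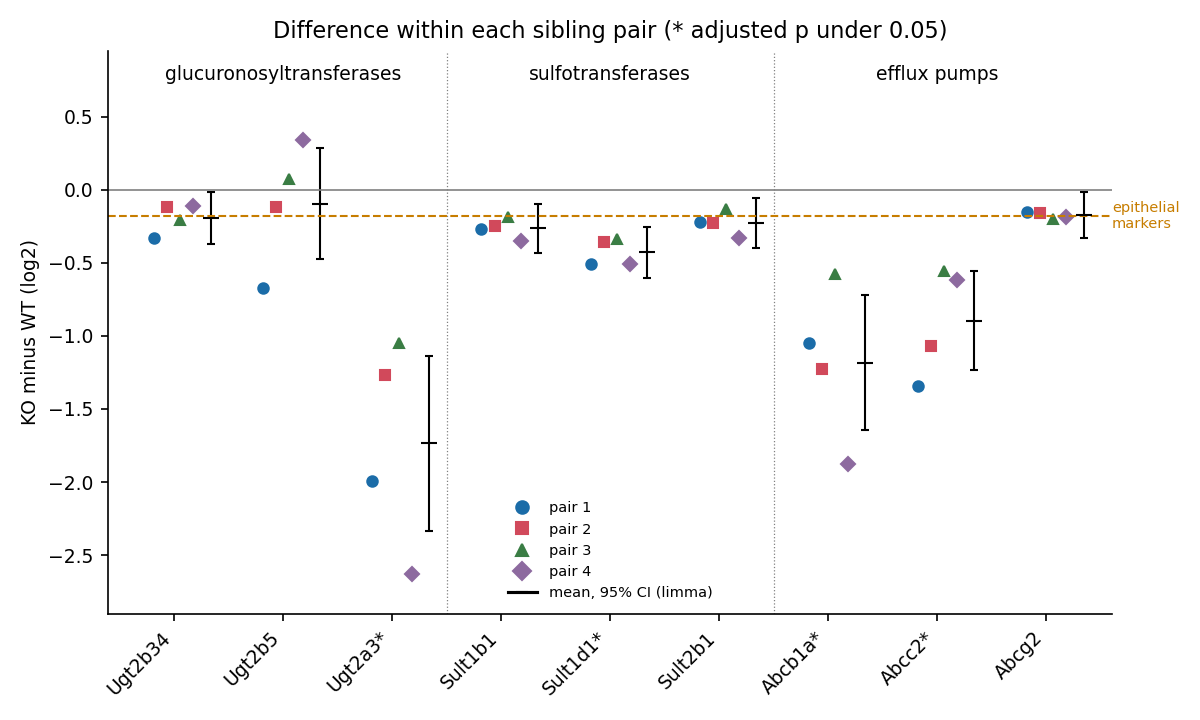
Differences KO minus WT (log2, y axis) for the 9 genes in pairs 1 to 4 (coloured symbols), with the mean and its 95% interval from limma in black and the mean difference of the 10 epithelial markers, -0.178, as a dashed line. Asterisks mark Ugt2a3, Sult1d1, Abcb1a and Abcc2, whose adjusted p was under 0.05, and the intervals of the other 5 genes reach the dashed line.

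Set against each other, the pumps had the larger median fall. The 3 pumps had median differences of -1.05, -1.07, -0.56 and -0.62 in pairs 1 to 4, against -0.42, -0.24, -0.20 and -0.34 for the 6 conjugating enzymes. The pump median was the lower one in each of the 4 pairs, and over the pair means it was -0.90 for pumps and -0.25 for enzymes. A median of 3 genes is the value of 1 of them, here Abcb1a in pair 1 and Abcc2 in pairs 2 to 4 and over the pair means. By limma 2 of 3 pumps and 2 of 6 enzymes were called lower, against 2.70% of all probe sets. The classes did not sort the genes, however, since the enzyme Ugt2a3 had the largest fall of the 9 and the pump Abcg2 a smaller one than every sulfotransferase. Because the genes were chosen with earlier results known, the gap between the classes was given no test.

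Pair 3 had the smallest difference for each of the 4 called genes, with -1.05 for Ugt2a3, -0.34 for Sult1d1, -0.58 for Abcb1a and -0.56 for Abcc2. The margin was small for Sult1d1 (-0.36 in pair 2) and Abcc2 (-0.62 in pair 4). Of the genes not called, Sult1b1 (-0.19) and Sult2b1 (-0.13) also fell least in pair 3. Abcg2 fell most there (-0.20), Ugt2b34 (-0.21) fell less in pairs 2 and 4, and Ugt2b5 differed by 0.07. Nfkbia fell least in pair 3, with -1.29. The median of the Paneth cell markers was also nearest 0 there, at 0.055 against -0.985, -1.135 and -1.055 in pairs 1, 2 and 4. Ang4 was at -0.17 in pair 3 against -1.99, -2.55 and -2.65, while Mmp7 differed most there (0.69). The part of these markers in the differences of the chosen genes was not tested. With 4 pairs no correlation was computed.

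The deposited scale mattered most for the genes with small differences. The 10 epithelial markers themselves differed by means of -0.156, -0.20, -0.156 and -0.201 in pairs 1 to 4. After centring each array on them Ugt2a3 (-1.56, limma adjusted p = 0.00956), Abcb1a (-1.01, adjusted p = 0.0130) and Abcc2 (-0.72, adjusted p = 0.0158) were still called lower. Their differences were smaller than as deposited. The lower adjusted p goes with 5482 probe sets called on that scale, against 1301 as deposited, and is no added support. Sult1d1 then lost its call (-0.25, adjusted p = 0.0521). Sult1b1 became -0.087, Sult2b1 -0.049 and Ugt2b34 -0.014, while Abcg2 turned to 0.0032 and Ugt2b5 to 0.083. Centring on 10 housekeeping genes, which were higher in KO mice by a mean of 0.163, moved every gene the other way. It left 8 of the 9 called lower, all but Ugt2b5, but on that scale 4768 of the 22206 probe sets were called lower, against 599 as deposited and 387 on epithelial genes. The reverse held for probe sets called higher, with 497 on housekeeping genes, 702 as deposited and 5095 on epithelial genes. The median difference over all probe sets was 0.163 on epithelial genes and -0.178 on housekeeping genes, against -0.015 as deposited, and which scale is right was not tested.

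**Figure D3:**
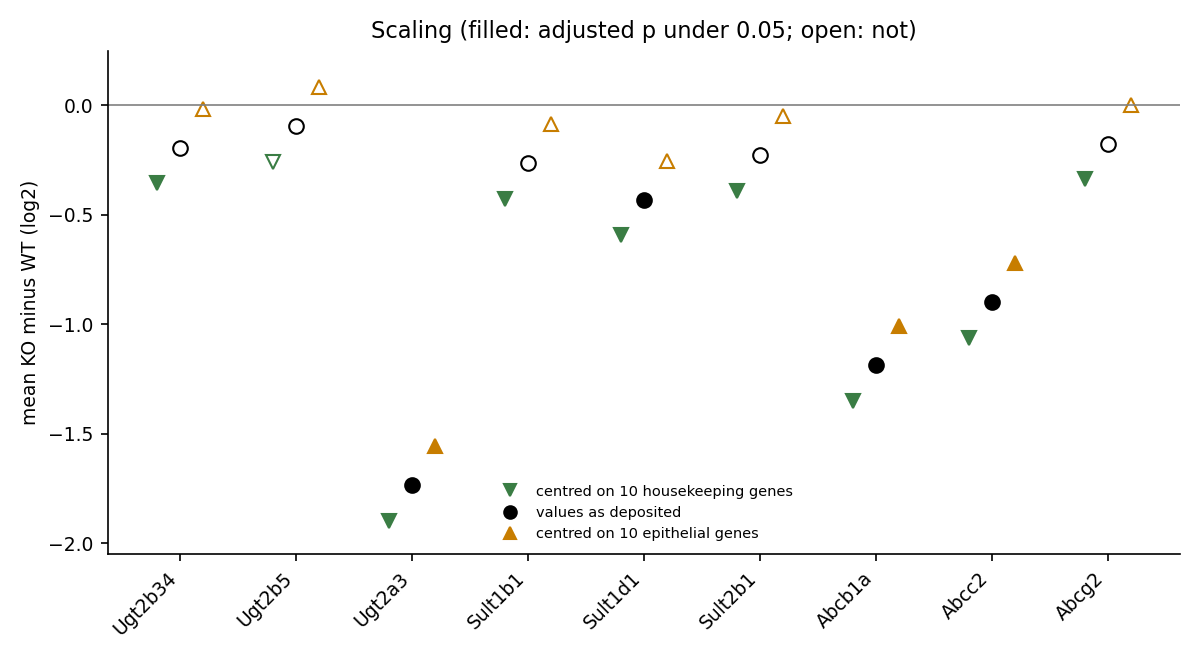
Mean difference KO minus WT (log2, y axis) of the 9 genes after centring on 10 housekeeping genes (downward triangles), as deposited (circles) and after centring on 10 epithelial markers (upward triangles), filled where the limma adjusted p was under 0.05. Ugt2a3, Abcb1a and Abcc2 stay filled in all 3, and on epithelial markers the other 6 lie between -0.25 and 0.083.

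In the RefSeq gene order of chromosome 5, 5 of the measured genes, Ugt2b34, Ugt2b5, Ugt2a3, Sult1b1 and Sult1d1, belong to a single run of 13 protein-coding genes that ends with Sult1e1. A probe set was measured for 11 of the 13, and 7 of the 11 lay above background in both groups. Of the 11, Ugt2a3 and Sult1d1 were called lower and 0 were called higher, against 2.70% and 3.16% of all probe sets. Ugt2b36 (7.28, 7.24, 7.63 and 7.57 in KO mice, 8.07, 8.11, 7.75 and 7.78 in WT mice) differed by -0.50 ± 0.387 without a call (limma adjusted p = 0.0913). Ugt2b35 (7.95, 8.44, 8.18 and 8.48 in KO mice, 8.05, 7.58, 8.02 and 7.81 in WT mice) pointed up, by 0.40 ± 0.444 (adjusted p = 0.177). Genes of the UGT2B subfamily are close in sequence, and whether their probe sets detect each other's transcripts was not tested.

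**Figure D4:**
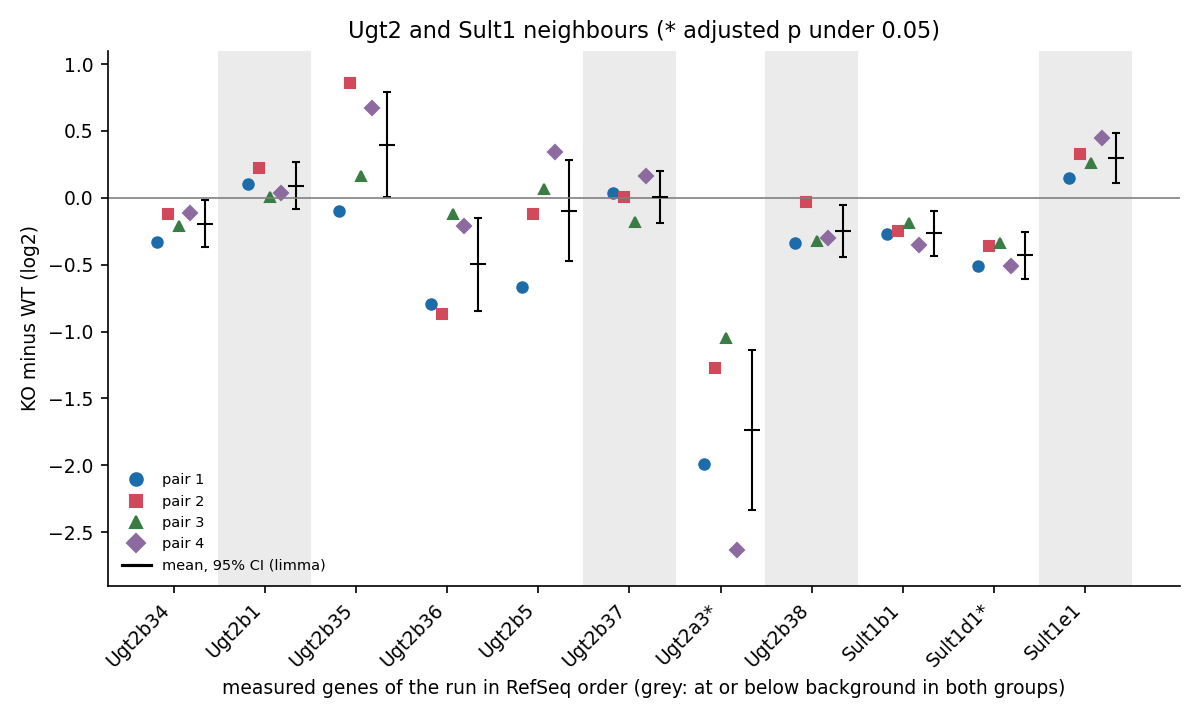
Differences KO minus WT (log2, y axis) for the 11 measured genes of the chromosome 5 run in RefSeq order (x axis), with pairs 1 to 4 as coloured symbols and the limma mean with its 95% interval in black. Grey columns mark genes at or below background in both groups. Ugt2a3 lies lowest at -1.74, beside Ugt2b37 at 0.01 and Ugt2b38 at -0.25, which are both in grey columns, where a fall could hardly be seen.

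Beyond the chosen enzymes, 0 of the 8 other glucuronosyltransferases measured were called in either direction (2 lower and 1 higher at unadjusted p under 0.05, median 0), with Ugt2b36 and Ugt2b35 the ones that differed most. Of the 18 other sulfotransferases 0 were called by limma (3 lower and 2 higher at unadjusted p under 0.05, median -0.024), and 15 of them lay at or below background in both groups. Sult6b2 had 9.34, 12.41, 10.21 and 10.48 in KO mice, against 8.13, 5.72, 8.79 and 8.75 in WT mice. All KO values were above all WT values, with pair 2 far apart from the rest. The difference of 2.76 ± 2.63 was not called (limma adjusted p = 0.109), while without pair 2 it was 1.45 with an adjusted p = 0.0185. Centring on housekeeping or epithelial genes also gave a call (2.60 and 2.94, adjusted p = 0.0498 and 0.0456). Those fits called 5265 and 5482 probe sets, against 1301 as deposited. The fit with no block called Sult6b2 too (adjusted p = 0.0269). It was not called with a random block (0.219), with sex added (0.174) or with trend and robust variance (0.288). Sult1a1, the main phenol sulfotransferase, differed by 0.49 ± 0.693 (adjusted p = 0.245), with 1.12 and 1 in pairs 1 and 2 and 0.18 and -0.34 in pairs 3 and 4.

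Among the genes that supply or recycle the sugar and sulfate donors the calls were upward. Of 8 measured, 2 were called higher and 0 lower, against 3.16% and 2.70% of all probe sets. At unadjusted p under 0.05, 4 were higher and 1 lower. The median difference was 0.2525, against -0.015 over all probe sets. Papss1, also among the 8, pointed down without a call (-0.41 ± 0.430, limma adjusted p = 0.158), by -0.35, -0.57, 0.15 and -0.87 in pairs 1 to 4. Papss2, which makes the sulfate donor PAPS, had 12.49, 13.40, 12.80 and 12.92 in KO mice, against 11.64, 10.92, 11.83 and 11.80 in WT mice. The groups did not overlap, and pair 2 was again the widest. Papss2 rose by 1.36 ± 0.758, or 2.56-fold (limma adjusted p = 0.0391), by 0.85, 2.48, 0.97 and 1.12 in pairs 1 to 4. Without pair 2 the rise was 0.98 (adjusted p = 0.0253), and without pair 1, 3 or 4 the call was lost (adjusted p from 0.0692 to 0.0967). It was also lost with a random block (adjusted p = 0.0845), with sex (0.0803) or RNA integrity (0.0652) added, and with trend and robust variance (0.107). Ugp2, which makes UDP-glucose, the precursor of UDP-glucuronic acid, had 10.92, 10.99, 10.95 and 11.05 in KO mice and 10.58, 10.52, 10.56 and 10.49 in WT mice. It rose by 0.44 ± 0.0963 (limma adjusted p = 0.0273). Its call was lost on leaving out any 1 pair (adjusted p from 0.0703 to 0.108) and on centring on housekeeping genes (0.28, adjusted p = 0.0609), and with sex (0.0596) or RNA integrity (0.0551) added.

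Among 12 other efflux carriers, 3 were called lower and 1 higher, against 2.70% and 3.16% of all probe sets. The median difference of the 12 was -0.094, against -0.015 over all probe sets. Abcb1b, the other mouse gene of P-glycoprotein, had 10.03, 10.02, 10.22 and 9.23 in KO mice, against 11.16, 11.24, 10.68 and 11.39 in WT mice. Its differences of -1.13, -1.22, -0.46 and -2.16 in pairs 1 to 4 stand beside -1.05, -1.23, -0.58 and -1.88 for Abcb1a. These genes are close in sequence, and whether their probe sets detect each other's transcripts was not tested. Abcb1b fell by 1.24 ± 0.699 (limma adjusted p = 0.0402), and the call was lost without pair 1, 2 or 4 (adjusted p = 0.107, 0.122 and 0.0704), with a random block (0.117) and with trend and robust variance (0.0861). Slc47a1, the proton-coupled exporter of organic cations MATE1, had 8.04, 7.97, 8.27 and 7.65 in KO mice and 9.27, 9.29, 9.16 and 9.64 in WT mice. It fell by 1.36 ± 0.461, or 2.56-fold (limma adjusted p = 0.0145), with no call without pair 1 or 2 (adjusted p = 0.0531 and 0.0638). Its relative Slc47a2 fell by 0.68 ± 0.393 (adjusted p = 0.0494), to a KO mean of 5.36, below the background level, so that its fall may be understated, and it kept its call only without pair 3 among the fits that leave out a pair (adjusted p from 0.0436 to 0.141; 0.0585 after quantile normalization, 0.0823 with sex and 0.109 with RNA integrity added).

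Abcc3 went the other way. It encodes MRP3, the basolateral pump of glucuronides, and had 11.48, 11.83, 11.55 and 11.80 in KO mice, against 10.40, 10.05, 10.49 and 10.34 in WT mice. Every KO value lay above every WT value. Abcc3 rose by 1.34 ± 0.343, or 2.54-fold, with a 95% interval of 1.03 to 1.66 (limma adjusted p = 0.00811). The rise was called on leaving out any 1 pair (adjusted p from 0.0155 to 0.0368) and after either centring, but not in the same-sex or the mixed-sex pairs alone, where 0 and 26 probe sets were called. In pairs 1 to 4 Abcc3 differed by 1.08, 1.78, 1.06 and 1.46, beside -1.34, -1.07, -0.56 and -0.62 for its apical relative Abcc2. Abcc1, also among the other efflux carriers, was higher in all 4 pairs without a call (0.375 ± 0.159, limma adjusted p = 0.0544).

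Uptake carriers were mixed, with 2 of 10 called lower and 1 higher, against 2.70% and 3.16% of all probe sets. Their median difference was -0.0225. The 10 include Slc51a (-0.41 ± 0.198, limma adjusted p = 0.0561) and Slc51b (0.235 ± 0.219, adjusted p = 0.185). These 2 form a basolateral exporter of bile acids rather than an uptake carrier, and neither was called. Slc15a1, the apical importer of small peptides and peptide-like drugs, had 12.55, 12.56, 12.96 and 12.54 in KO mice, against 13.49, 13.48, 13.11 and 13.42 in WT mice. It fell by 0.72 ± 0.382 (limma adjusted p = 0.0418), with pair 3 at -0.15 and the others at -0.94, -0.92 and -0.88. The organic cation carrier Slc22a4 fell by 0.60 ± 0.169 (adjusted p = 0.0206) and the organic anion carrier Slco3a1 rose by 0.49 ± 0.0206 (adjusted p = 0.0182). Slc15a1 and Slc22a4 lost their calls without pair 1, 2 or 4 (adjusted p from 0.117 to 0.138 and from 0.0694 to 0.0844), and Slco3a1 on leaving out any 1 pair (adjusted p from 0.0554 to 0.0821). With RNA integrity added none of the 3 was called (adjusted p = 0.0737, 0.0573 and 0.0513), nor was Slc15a1 with sex added (0.0507).

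**Figure D5:**
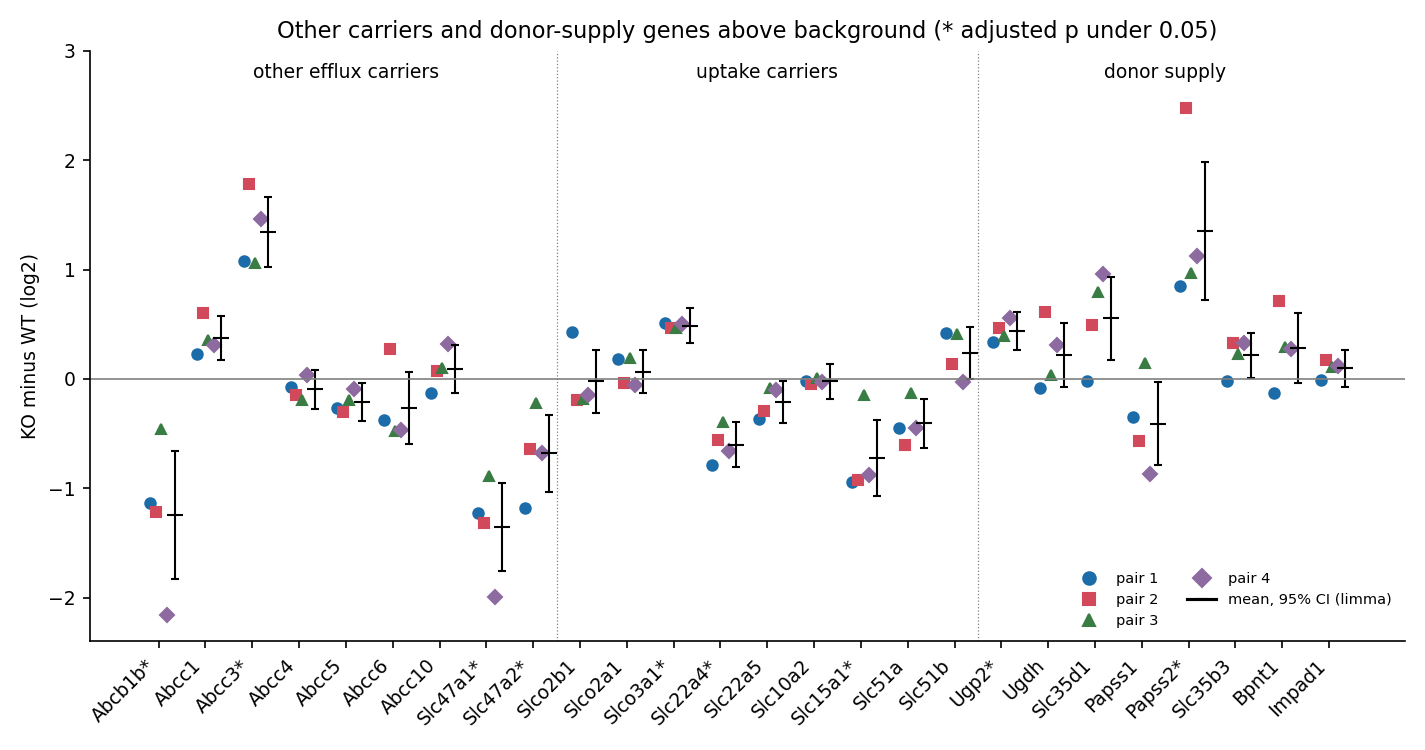
Differences KO minus WT (log2, y axis) for the other efflux carriers, uptake carriers and donor-supply genes that lay above background in at least 1 group, with pairs 1 to 4 as coloured symbols and the limma mean with its 95% interval in black. Abcb1b, Slc47a1 and Slc47a2 lie below 0 in all 4 pairs, and Abcc3 and Papss2 lie above 0 in all 4. The uptake carriers shown include the exporter genes Slc51a and Slc51b.

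Of 11 measured receptors and factors known to control drug-handling genes, 0 were called (1 lower and 4 higher at unadjusted p under 0.05), with a median difference of 0.11. Ppara, the receptor of fatty acids, had 7.67, 7.64, 7.93 and 7.56 in KO mice and 8.21, 8.18, 8.03 and 8.37 in WT mice, a difference of -0.50 ± 0.294 that just missed the call (limma adjusted p = 0.0601). Without pair 3 it was -0.63 and called (adjusted p = 0.0446), as it was after quantile normalization, with a random block, with no block, with sex added, with trend and robust variance and on housekeeping genes. Nr1h4, the bile acid receptor FXR, had 10.41, 10.41, 10.44 and 10.54 in KO mice and 10.27, 10.34, 9.95 and 9.86 in WT mice. Its difference of 0.34 ± 0.289 (adjusted p = 0.124) came mostly from pairs 3 and 4, which differed by 0.49 and 0.68, against 0.14 and 0.07 in pairs 1 and 2, and it was called on epithelial genes (0.52, adjusted p = 0.0227).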

How the data were processed

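Clariom S arrays were hybridised with duodenal RNA of 8 mice. The authors deposited a log2 value per probe set and array. The submitters' processing notes name RMA and Transcriptome Analysis Console 4.0, and the sources used here give no other setting. Genes were named through the platform's probe table (19572 of 22206 probe sets named), and 147 of 168 list symbols matched, by symbol or RefSeq gene ID.

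The members, gene lists and tests were chosen with earlier results of these data known. limma 3.58.1 in R 4.3.3 was fitted to all 22206 probe sets with genotype and the sibling pair, numbered in the labels, as a block (3 residual degrees of freedom, 6.63 after moderation), with Benjamini-Hochberg adjustment. Sibling deviations from the group means had correlations between -0.913 and -0.870, since pair means are nearly equal. The 4 differences are not fully independent: across probe sets they correlated by 0.682 between pairs 1 and 2 and by 0.673 between pairs 3 and 4, against 0.346 to 0.420 otherwise, so p-values may be too small. The labels call the mice siblings, so they are separate animals. The fit was tested on simulated data. All members were named, with Nfkbia and, of each other list, up to 4 called genes with the largest difference, or the 2 with the largest where 0 were called. Papss1, Abcc1, Slc51a, Slc51b and some cell type markers were named besides. The background level is the mean log2 value that 95% of 1091 probe sets of olfactory receptors did not exceed. Promoters and gene order are from RefSeq GRCm38.p6, and all 10 genes had a promoter entry, some several. The number of arrays limits the precision. Alternatives were a fit with no block, the pair as a random effect, a covariate for sex or for RNA integrity, a filter on dim probe sets, quantile normalization, 2 centrings, trend and robust variance, leaving out pairs, and a threshold of 0.1.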

Additional observations from a re-analysis of the deposited data

Results flagged for a closer look

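A single pair stood apart from the other 3 in 4 of the 43 sets of 4 values examined, where chance alone flags about 1 in 20 sets. The gap to the nearest other value, as a share of the whole range, was 0.905 for the Sult6b2 difference, with pair 2 at 6.69 and the lowest pair at 1.21. It was 0.834 for Papss2, also through pair 2, at 2.48 against 0.85 in the lowest pair. For Slc15a1 it was 0.924, with pair 3 at -0.15 and the widest pair at -0.94. For Nfkbia it was 0.832, again through pair 3, at -1.29 against -3.26 in the widest pair. The values of the 9 chosen genes gave no such gap.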

How the results depend on the processing

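The fit without the replicate block called 7 of the 9 genes lower (5 enzymes) among 7648 probe sets. A random block called 2 (1 enzyme and 1 pump) of 2018, sex added to the block 2 (1 and 1) of 464, and RNA integrity 1 (0 and 1) of 364. Centring on housekeeping genes called 8 (5 enzymes, median -0.41) of 5265, and on epithelial genes 3 (1 enzyme, enzyme median -0.068) of 5482. The share of higher probe sets among calls, 54.0%, became 9.44% and 92.9% in these centrings. Trend and robust variance called 1997 probe sets and a threshold of 0.1 called 3304. On leaving out 1 pair limma called 145 to 459 probe sets, 0 to 3 of the 9 genes (5 or 6 at unadjusted p under 0.05), 0 to 1 enzymes and 0 to 2 pumps: 0 genes without pair 1 or 2, 3 without pair 3 and 1 without pair 4. The same-sex pairs alone gave 0 of 0 (5 genes and 5278 probe sets at unadjusted p under 0.05), and the mixed-sex pairs 0 of 26 (4 genes at unadjusted p under 0.05), with 0 enzymes and 0 pumps in each and a pump median of -0.59 in the mixed-sex pairs. Ugt2a3, Sult1d1, Abcb1a and Abcc2 kept a negative difference in all 16 settings, and 0 of the 9 genes was called higher in any. For these genes only RNA integrity, quantile normalization and the centrings could have changed the sign. Leaving out pairs could not, as every pair difference was negative, and the remaining settings left the mean difference unchanged. The adjusted p of Ugt2a3, Sult1d1, Abcb1a and Abcc2 reached 0.213, 0.208, 0.246 and 0.173. With RNA integrity Ugt2a3 (adjusted p = 0.0508), Sult1d1 (0.0698) and Abcc2 (0.0678) were not called. With sex Sult1d1 (0.0612) and Abcc2 (0.0578) were not, and with the random block Ugt2a3 (0.0594) and Abcb1a (0.102). The cause was not tested.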
